A study of Mus musculus with 12 samples.

Results

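Tumour necrosis factor (TNF) ligands and receptors were followed in sorted spinal cord microglia during a chronic-relapsing form of experimental autoimmune encephalomyelitis (EAE), an induced autoimmune attack on the central nervous system that models multiple sclerosis. These genes were chosen by symbol and are 10 of the 48526 genes in the deposited counts, with 5 ligands (Tnf, Tnfsf8, Tnfsf10, Tnfsf12 and Tnfsf13b) and 5 receptors (Tnfrsf1a, Tnfrsf1b, Fas, Tnfrsf11a and Tnfrsf17). All mice were of the Biozzi ABH strain. The groups were control mice, diseased mice in the acute phase, diseased mice in remission and diseased mice in the chronic phase, with 3 mice and 3 libraries in each. Age, time after induction and the treatment of the control mice are not given in the sources used here. The sort gate took cells with CD11b, intermediate CD45 and no Ly-6C.

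TNF superfamily ligands are mostly membrane proteins that act as trimers, some of them after being cut from the cell surface, and their receptors either recruit TRAF adaptors that switch on NF-kB or carry a death domain that can start cell death. TNF, a cytokine made largely by macrophages and microglia, acts on the widely expressed receptor 1 (Tnfrsf1a), which has a death domain, and on receptor 2 (Tnfrsf1b), which has none and is typical of immune and glial cells. The other genes belong to axes of their own: FAS and its ligand in cell death, RANK (Tnfrsf11a) and RANKL in osteoclast formation, and BAFF (Tnfsf13b) with the receptor BCMA (Tnfrsf17) in B cell and plasma cell survival.

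Total counts ranged from 3992885 to 5712376 per library, of which 1266782 to 2496096 lay outside the 6 most abundant features and the mitochondrially encoded genes. Levels are CPM, the count of a gene scaled to the counts over the 12545 genes tested with TMM factors, and 1 count was worth 0.142 to 0.296 CPM. The summed level of 12 homeostatic microglia genes lay at 10300 to 11600 CPM in control, 2460 to 3800 at the acute phase, 8190 to 8370 in remission and 7790 to 8000 at the chronic phase. That of 15 genes of monocytes and recruited macrophages lay at 27.7 to 71.4, 1780 to 2680, 36.7 to 41.9 and 43.4 to 57.9 CPM in the same order, and 14 of the 14 tested passed as higher at the acute phase than in control. Ly6c2, a transcript of the Ly-6C antigen that the gate left out, stood at 64.6 ± 19 CPM at the acute phase (SD, n = 3), at most 0.389 CPM on average in the other groups and 0 in control. In control libraries Chil3, F10, S100a4 and Clec4e of this list were also at 0. Neutrophil genes reached up to 418 CPM and T and NK cell genes 94.9 to 141 CPM at the acute phase, against at most 0.569 and 1.75 CPM in control libraries. Myelin genes summed to 447 to 582 CPM and astrocyte genes to 183 to 226 CPM there, against 86.8 to 110 and 58.2 to 74.3 CPM in control. Remission replicate 1 stood apart from the other remission libraries, with 57.4 CPM of neutrophil and 700 CPM of myelin genes. The part of these cells in the acute values below was not tested, and in these bulk samples a change in the number of cells of a type and a change in RNA per cell cannot be told apart.

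The promoters of 4 members are shown because these genes gave the largest rises at the acute phase (Tnf, Fas), the most abundant receptor per exon length (Tnfrsf1b) and the one transcript without a count there (Tnfrsf17). Each line holds the 250 bases before the RefSeq start site, 5′ to 3′ on the gene's strand, at chr17:35202008-35202257 (minus strand) for Tnf, chr19:34290409-34290658 (plus) for Fas, chr4:145246871-145247120 (minus) for Tnfrsf1b and chr16:11313559-11313808 (plus) for Tnfrsf17, on GRCm38.p6. Capitals mark matches, on either strand, to an interferon response element (GAAANNGAAA), a gamma-activated site (TTCNNNGAA) or an AP-1 site (TGACTCA).
Tnf promoter: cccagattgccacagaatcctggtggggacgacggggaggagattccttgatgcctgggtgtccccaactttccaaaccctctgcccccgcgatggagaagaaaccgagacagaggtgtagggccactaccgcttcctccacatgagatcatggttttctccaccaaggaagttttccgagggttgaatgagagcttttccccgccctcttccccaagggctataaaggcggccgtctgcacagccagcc
Fas promoter: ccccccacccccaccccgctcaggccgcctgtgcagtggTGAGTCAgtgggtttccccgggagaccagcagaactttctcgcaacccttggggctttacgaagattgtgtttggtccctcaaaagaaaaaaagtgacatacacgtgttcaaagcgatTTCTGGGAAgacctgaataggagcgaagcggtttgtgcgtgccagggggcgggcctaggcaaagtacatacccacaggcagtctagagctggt
Tnfrsf1b promoter: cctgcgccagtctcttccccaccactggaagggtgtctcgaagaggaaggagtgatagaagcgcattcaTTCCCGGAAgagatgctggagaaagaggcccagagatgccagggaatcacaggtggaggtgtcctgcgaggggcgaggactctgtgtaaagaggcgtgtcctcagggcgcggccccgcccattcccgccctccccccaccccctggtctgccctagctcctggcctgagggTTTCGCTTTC
Tnfrsf17 promoter: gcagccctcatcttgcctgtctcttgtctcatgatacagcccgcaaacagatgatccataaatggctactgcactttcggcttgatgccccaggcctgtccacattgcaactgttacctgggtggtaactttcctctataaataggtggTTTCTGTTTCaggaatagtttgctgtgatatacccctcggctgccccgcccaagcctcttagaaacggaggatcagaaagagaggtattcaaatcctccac

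Tnfrsf1b held an interferon response element 10 to 1 bases before its start and a gamma-activated site 181 to 173 bases before it. Fas held a gamma-activated site 93 to 85 bases before its start and an AP-1 site 211 to 205 bases before it, and Tnfrsf17 an interferon response element 101 to 92 bases before it. The Tnf window held none of these, nor the NF-kB consensus or the PU.1 letters GAGGAAGT. Among 32851 mouse promoters of the same length, 2.98% held the interferon response element, 7.02% the gamma-activated site, 4.46% the AP-1 site, 7.25% the NF-kB consensus and 2.44% the PU.1 letters. A match is a description of the letters in these windows and not a measured site. Promoters were found in RefSeq for 9 of the 10 members, and that of Tnfsf12 is not shown.

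**Figure D1:**
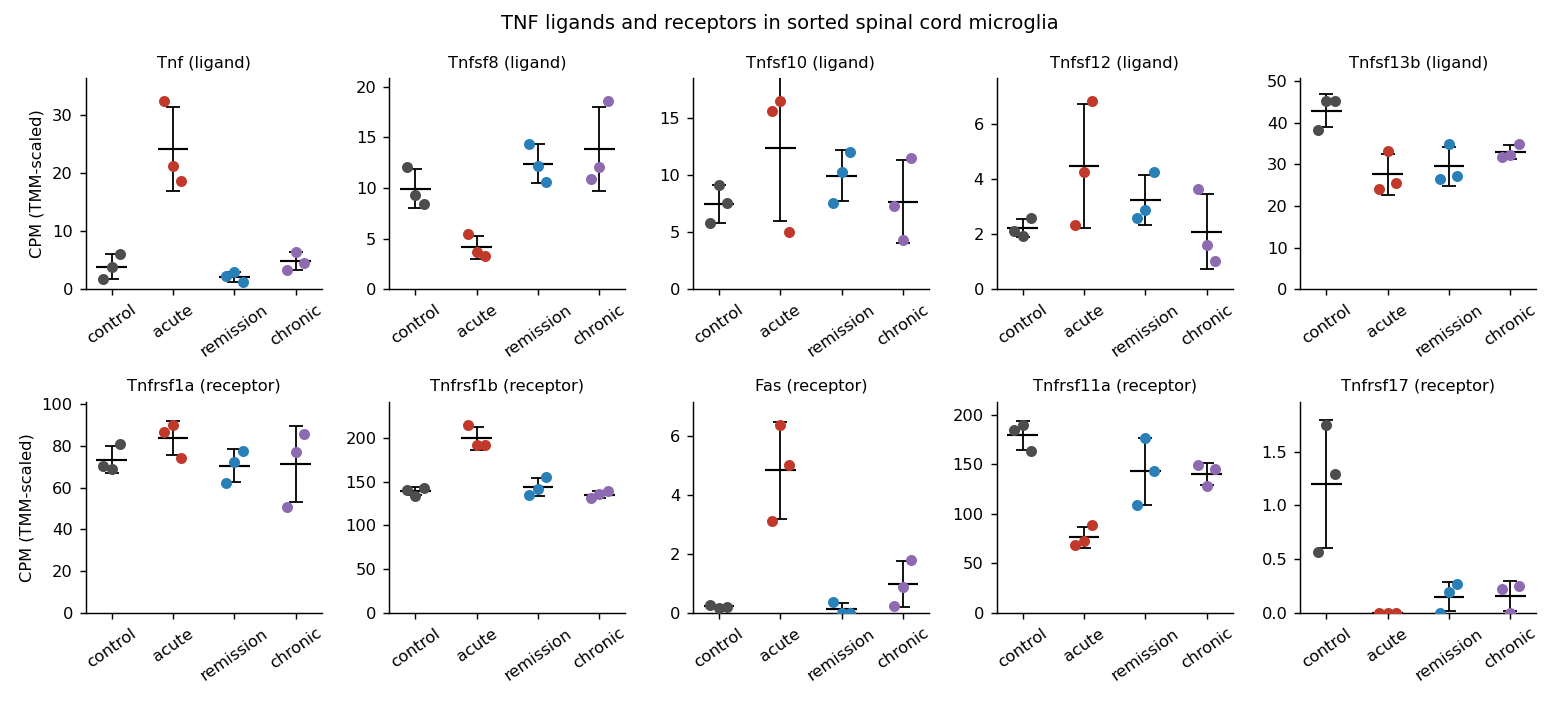
Level of each of the 10 genes in CPM (linear axes from 0) in every library, by group; points are libraries and the short bars are group means. Tnf and Fas stood highest in the 3 acute libraries, Tnfrsf11a and Tnfsf8 lowest, and Tnfrsf17 had no count there.

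In acute against control mice, 3 of the 9 members that could be tested were higher, namely Tnf, Tnfrsf1b and Fas, and 3 were lower, namely Tnfrsf11a, Tnfsf8 and Tnfsf13b. Over all genes tested 23.7% were called higher and 20% lower, 43.7% in either direction. Fas passed the filter on low counts only through its acute libraries, so that it could only come out as higher there. Without Fas the counts were 2 higher and 3 lower of 8. Tnfrsf17 did not pass the filter. The median log2 fold change of the 9 members, with Fas included, was 0.52, beside 0.02 over all genes tested.

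Among the ligands, Tnf (ENSMUSG00000024401, chromosome 17, 35199381 to 35202007 on GRCm38) showed the largest change. It stood at 1.85, 3.86 and 6.04 CPM in control, 32.4, 21.3 and 18.7 at the acute phase, 2.21, 3.06 and 1.33 in remission and 3.41, 6.48 and 4.59 at the chronic phase. All acute libraries lay above all others, and the remission and chronic libraries overlapped the control range. The rise at the acute phase was 2.67 ± 0.36 on the log2 scale (SE, adjusted p 5.99e-06), from 3.92 ± 2.1 to 24.1 ± 7.3 CPM (SD, n = 3). Tnf was then lower in remission than in the acute phase by a log2 fold change of -3.4 ± 0.39 (adjusted p 1.68e-06) and lower in chronic than in acute mice by -2.3 ± 0.36 (adjusted p 6.7e-05). Remission against control (log2 fold change -0.73 ± 0.44, adjusted p 0.361) and chronic against remission (1.1 ± 0.43, adjusted p 0.212) did not pass, although each chronic library lay above each remission library.

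Tnfsf8 (ENSMUSG00000028362, chromosome 4, 63831308 to 63861347), the ligand of CD30, moved the other way. It stood at 12.1, 9.29 and 8.42 CPM in control, 5.45, 3.73 and 3.26 at the acute phase, 14.4, 12.2 and 10.6 in remission and 10.9, 12.1 and 18.6 at the chronic phase. The acute libraries lay below all 9 others. Its log2 fold change was -1.26 ± 0.3 in acute against control mice (adjusted p 0.00167), 1.58 ± 0.29 in remission against acute (adjusted p 0.000278) and 1.72 ± 0.29 in chronic against acute mice (adjusted p 0.000159). Its receptor Tnfrsf8, CD30, held 1 count in control and 33 in acute libraries, a 52.2-fold ratio (exact 95% counting interval 8.74 to 2120).

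Tnfsf13b (ENSMUSG00000031497, chromosome 8, 10006467 to 10039072), which encodes BAFF, was the most abundant ligand per exon length in control mice and was lower at the acute phase and in remission. It stood at 38.3, 45.2 and 45.1 CPM in control, 24.1, 33.3 and 25.5 at the acute phase, 26.6, 34.8 and 27.1 in remission and 31.8, 32.2 and 34.9 at the chronic phase, so that every library of diseased mice lay below every control library. The log2 fold change against control was -0.63 ± 0.16 in acute (adjusted p 0.00321), -0.53 ± 0.16 in remission (adjusted p 0.0342) and -0.38 ± 0.16 in chronic mice (adjusted p 0.119), of which the last did not pass. The remission call ended without control replicate 2 (-0.48, adjusted p 0.144), control replicate 3 (adjusted p 0.132), remission replicate 1 (adjusted p 0.156) or remission replicate 3 (adjusted p 0.113). Tnfsf13b was the only member called in remission against control mice, 1 of 9 tested, where 9.31% of all genes were called, 6.06% higher and 3.25% lower.

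Tnfsf10 (ENSMUSG00000039304, chromosome 3, 27317028 to 27342427), which encodes the death ligand TRAIL, passed in no comparison. It stood at 5.83, 9.11 and 7.55 CPM in control, 15.6, 16.5 and 5.04 at the acute phase, 7.57, 10.3 and 12 in remission and 7.26, 4.32 and 11.5 at the chronic phase. Acute replicates 1 and 2 were the highest of the 12 libraries and acute replicate 3 the second lowest. The acute log2 fold change was 0.74 ± 0.39 (adjusted p 0.136), and without acute replicate 3 it was 1.1 (adjusted p 0.0113), with chronic against acute mice at -1.09 (adjusted p 0.0206). Tnfrsf10b, which encodes its death receptor in the mouse, did not pass the filter and stood at 0.356 CPM in control and 1.44 CPM in acute libraries.

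Tnfsf12 (ENSMUSG00000097328, chromosome 11, 69686250 to 69695849), which encodes TWEAK, is uncertain because 48.3% of its 1515 exon bases are also exons of the read-through gene Tnfsfm13 on the same strand, which held 6 counts over the 12 libraries. Tnfsf12 stood at 2.13, 1.93 and 2.59 CPM in control, 2.33, 4.26 and 6.82 at the acute phase, 2.58, 2.87 and 4.25 in remission and 3.63, 1.62 and 1.02 at the chronic phase. It passed in no comparison (acute against control log2 fold change 1 ± 0.49, adjusted p 0.102), but passed without acute replicate 1 (1.31, adjusted p 0.0453) and, in chronic against acute mice, without chronic replicate 1 (-1.69, adjusted p 0.0331). Its receptor Tnfrsf12a, FN14, stood at 1.58 CPM in control and 2.69 CPM in acute libraries, which did not pass (adjusted p 0.294).

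Of the pair of TNF receptors, Tnfrsf1b passed at the acute phase and Tnfrsf1a did not, and the difference between them is given below as a ratio. Tnfrsf1a (ENSMUSG00000030341, chromosome 6, 125349362 to 125362484) stood at 70.3, 68.9 and 80.9 CPM in control, 86.4, 90.1 and 74.4 at the acute phase, 62, 72.1 and 77.6 in remission and 50.8, 77.2 and 85.7 at the chronic phase, with all groups overlapping control. It passed in no comparison, and its acute log2 fold change of 0.19 ± 0.16 (adjusted p 0.352) had a 95% interval of -0.12 to 0.51. Tnfrsf1b (ENSMUSG00000028599, chromosome 4, 145213463 to 145246870) stood at 141, 134 and 143 CPM in control, 215, 192 and 192 at the acute phase, 135, 142 and 155 in remission and 131, 136 and 139 at the chronic phase. Its acute libraries lay above all others, while the other 3 groups overlapped each other. The log2 fold change was 0.52 ± 0.11 in acute against control (adjusted p 0.000764), -0.47 ± 0.11 in remission against acute (adjusted p 0.00238) and -0.56 ± 0.11 in chronic against acute mice (adjusted p 0.000776). Scaled to library totals alone, where the median of all genes moved to -0.53, the acute log2 fold change of Tnfrsf1b was -0.04 (adjusted p 0.839). In that scaling remission against acute (-0.16, adjusted p 0.412) and chronic against acute mice (-0.36, adjusted p 0.0731) did not pass either.

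The ratio of Tnfrsf1b to Tnfrsf1a per exon length needs no scaling between libraries. It was 1.36, 1.32 and 1.2 in control, 1.69, 1.45 and 1.75 at the acute phase, 1.48, 1.33 and 1.36 in remission and 1.75, 1.2 and 1.1 at the chronic phase. The acute libraries lay above the control libraries, with means of 1.63 ± 0.159 and 1.29 ± 0.0859 (SD, n = 3), and an exact two-sided permutation test gave p 0.1, the smallest that 3 against 3 libraries allow. Chronic replicate 1 lay as high as the acute libraries, and the other chronic libraries lay at or below the lowest control value. Lymphotoxin alpha, Lta, the other ligand of both receptors, held 1 count in control and 10 in acute libraries, a 15.8-fold ratio (counting interval 2.25 to 686).

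Fas (ENSMUSG00000024778, chromosome 19, 34290666 to 34327772), a death domain receptor, was near the limit of detection outside the acute phase. It held 2, 1 and 1 counts in the control, 12, 24 and 17 in the acute, 2, 0 and 0 in the remission and 1, 5 and 7 in the chronic libraries. That gave 0.225 ± 0.0552 CPM in control, 4.85 ± 1.65 at the acute phase, 0.123 ± 0.213 in remission and 0.971 ± 0.782 at the chronic phase (SD, n = 3). The acute libraries lay above all others, and the chronic libraries overlapped control. The log2 fold change was 4.25 ± 0.78 in acute against control (adjusted p 0.000163) and -2.32 ± 0.66 in chronic against acute mice (adjusted p 0.0124). Remission was lower than the acute phase (adjusted p 0.000172), with a ratio of acute to remission counts of 34.8 and an interval of 9.16 to 295. The chronic against acute call ended without acute replicate 2 (adjusted p 0.0856), chronic replicate 1 (adjusted p 0.0709) or chronic replicate 2 (adjusted p 0.0584), and with the title number as a block (-2.08, adjusted p 0.0844). Fasl, which encodes the FAS ligand of cytotoxic lymphocytes, had 0 counts in the other 3 groups and 20 in acute libraries, at least 10.5-fold higher than the control floor of 3 counts over the group.

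Tnfrsf11a (ENSMUSG00000026321, chromosome 1, 105780718 to 105847981), which encodes RANK, was among the 3 most abundant members per exon length in control mice and fell at the acute phase. It stood at 185, 190 and 163 CPM in control, 68.2, 72.7 and 88.6 at the acute phase, 109, 177 and 143 in remission and 149, 128 and 145 at the chronic phase. The acute libraries lay below all others, the chronic libraries lay below all control libraries, and the remission libraries overlapped control. The log2 fold change was -1.23 ± 0.16 in acute against control (adjusted p 2.32e-06), 0.9 ± 0.16 in remission against acute (adjusted p 0.000132) and 0.88 ± 0.16 in chronic against acute mice (adjusted p 0.000254). Against control, remission (-0.33 ± 0.15, adjusted p 0.211) and chronic mice (-0.35 ± 0.15, adjusted p 0.136) did not pass, but chronic mice did with library totals alone (-0.72, adjusted p 0.00468) and with the title number as a block (-0.45, adjusted p 0.0492). Remission against control passed without remission replicate 2 (-0.51, adjusted p 0.0476) and with library totals alone (-0.57, adjusted p 0.0362).

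The RANK ligand Tnfsf11 held 1 count in control and 38 in acute libraries, a 60.1-fold ratio (counting interval 10.2 to 2440), and 0 counts in remission and chronic libraries. RANK and the transcript of its ligand thus stood in opposite order in control and acute libraries. The decoy receptor Tnfrsf11b, osteoprotegerin, had 0 counts in control and 2, 8 and 0 counts in the chronic libraries, so that most of its counts came from chronic replicate 2. RANKL, like the FAS ligand, is also made by activated T cells. T and NK cell genes, at 94.9 to 141 CPM at the acute phase, moved with both, with Cd3e, Cd3d, Cd3g and Cd4 at 0 in control libraries, and their part was not tested.

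Tnfrsf17 (ENSMUSG00000022496, chromosome 16, 11313812 to 11320074), which encodes BCMA, a receptor best known from plasma cells, had 24 counts in all and did not pass the filter. It held 4, 10 and 6 counts in control, 0, 0 and 0 at the acute phase, 0, 1 and 1 in remission and 1, 0 and 1 at the chronic phase. Every control library lay above every library of diseased mice. The pooled level was at least 4.21-fold lower in acute than in control mice, against a floor of 3 counts over the group, and the ratio of control to remission was 8.3 (2.02 to 73.2) and of control to chronic 7.99 (1.94 to 70.5). With no low-count filter the acute against control difference passed (adjusted p 0.0125 by edgeR), and those of remission (adjusted p 0.245) and chronic mice (adjusted p 0.237) did not. The 10 B and plasma cell genes summed to 127 to 185 CPM in control, 119 to 138 at the acute phase, 104 to 114 in remission and 112 to 142 at the chronic phase. In control libraries, where Tnfrsf17 was highest, that sum came mostly from Xbp1 (90.9 CPM), which many cell types express, and Ighm (64.3 CPM, against 18.8 at the acute phase), with 52 counts of Cd79b and 11 of Cd79a, while 5 genes of the list, among them Ms4a1, Jchain, Mzb1 and Sdc1, were at 0. At the acute phase the list went both ways. Sdc1 stood at 11.7 CPM, Jchain at 1.47 and Xbp1 at 95.5, while Cd79b and Cd79a held 9 and 3 counts. Of its 4 tested genes 1 was higher and 2 were lower than in control, beside 23.7% and 20% of all genes. The part of B and plasma cells in the Tnfrsf17 counts was not tested.

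The other receptors of BAFF were followed beside it. Tnfrsf13b, which encodes TACI, stood at 37 ± 6.82 CPM in control, 24.7 ± 1.13 at the acute phase, 28.5 ± 5.87 in remission and 22.1 ± 7.25 at the chronic phase (SD, n = 3). It was lower than in control in acute (adjusted p 0.0303) and chronic mice (adjusted p 0.0164), and remission did not pass (adjusted p 0.311). The acute call ended by DESeq2 (adjusted p 0.0583), with the title number as a block (adjusted p 0.0639), without control replicate 2 (adjusted p 0.143) and without any 1 of the acute libraries. The chronic call ended without chronic replicate 1 (adjusted p 0.0505), chronic replicate 2 (adjusted p 0.0978) or control replicate 2 (adjusted p 0.114). Tnfsf13, which encodes APRIL, the other ligand of TACI and BCMA, stood between 0.61 and 0.894 CPM on average in the 4 groups.

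**Figure D2:**
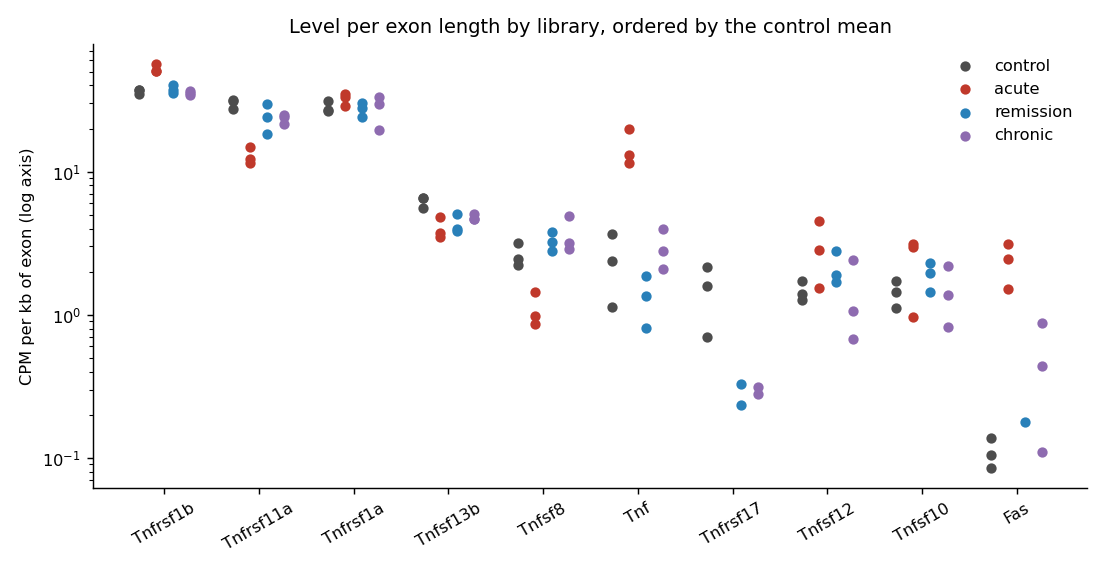
CPM per kb of exon (log axis) for each library, colored by group, with the 10 genes ordered by their control mean; a library with 0 counts is not drawn. Tnfrsf1b, Tnfrsf11a and Tnfrsf1a form the upper level in control mice, and in acute mice Tnf reaches that of Tnfrsf11a.

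Set per kb of exon, the control levels fell into steps. Tnfrsf1b led at 36.5 ± 1.16 CPM per kb, followed by Tnfrsf11a at 30 ± 2.41 and Tnfrsf1a at 28.3 ± 2.54, and the last 2 did not differ beyond their spread. Tnfsf13b followed at 6.24 ± 0.579, above Tnfsf8 at 2.61 ± 0.504 and Tnf at 2.39 ± 1.28. Tnfrsf17, Tnfsf12 and Tnfsf10 lay at 1.48 ± 0.732, 1.46 ± 0.224 and 1.42 ± 0.312, within the spread of Tnf, and Fas was lowest at 0.109 ± 0.0268. In acute mice Tnf stood at 14.7 ± 4.45 CPM per kb and Tnfrsf11a at 12.8 ± 1.79, which did not differ beyond their spread, while Tnfrsf1b stood at 52.3 ± 3.37 and Tnfrsf1a at 32.3 ± 3.16. The 2 TNF receptors and RANK were therefore the upper 3 in control, remission and chronic mice, and Tnf replaced RANK in the mean order of the acute group.

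**Figure D3:**
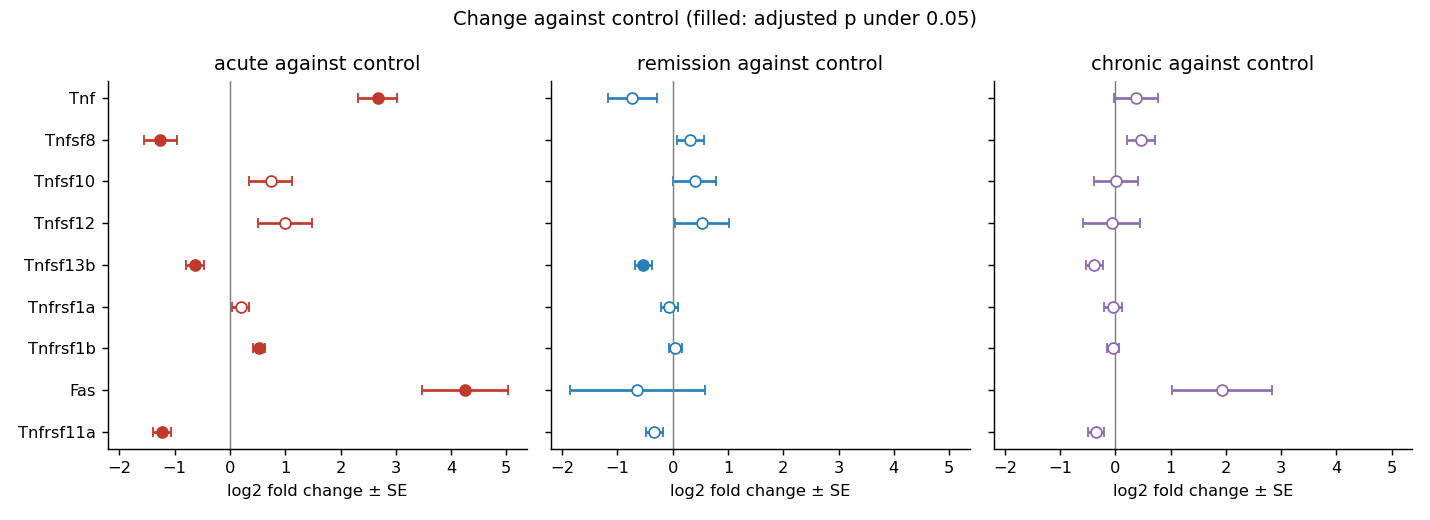
Log2 fold change against control with its SE for the 9 tested members in acute, remission and chronic mice; filled points have an adjusted p under 0.05. Acute mice show 6 filled points, remission mice 1 (Tnfsf13b) and chronic mice none.

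In chronic against control mice 0 of 9 members passed by edgeR, where 14.7% of all genes were called (9.57% higher, 5.17% lower), and 3 had an unadjusted p under 0.05, namely Tnfsf13b (0.0252), Tnfrsf11a (0.0307) and Fas (0.0453). By DESeq2 the count was 0 and by limma-voom 0. In chronic against remission mice 0 of 9 passed, where 1.2% of all genes were called (0.941% higher, 0.263% lower), and 2 had an unadjusted p under 0.05, Tnf (0.0196) and Fas (0.0208). Both stood higher in the chronic group, and DESeq2 called 0 and limma-voom 0 members, beside 2.35% and 0.383% of all genes. The share of all genes with an unadjusted p under 0.05 was not computed. The counts of 3 and 2 members at that threshold therefore have no background beside them.

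In remission against acute mice 2 of 9 members were higher (Tnfsf8 and Tnfrsf11a) and 3 lower (Tnf, Tnfrsf1b and Fas), beside 36.9% of all genes called, 17.6% higher and 19.4% lower. In chronic against acute mice the counts were again 2 higher and 3 lower, beside 28.8% of all genes, 13.3% higher and 15.5% lower, for those same 5 genes. The comparisons share their acute libraries, so the lists are not independent. Fas passed the filter only through its acute libraries, so its lower calls are part of how it came to be tested. Without Fas each of these comparisons gave 2 higher and 2 lower of 8 members. Tnfsf13b passed in neither, with a log2 fold change of 0.1 ± 0.16 (adjusted p 0.682) in remission and 0.25 ± 0.16 (adjusted p 0.273) in chronic against acute mice. The test for any difference among the 4 groups passed for 6 of 9 members, Fas included, beside 44% of all genes. It did not pass for Tnfsf10 (adjusted p 0.31), Tnfsf12 (adjusted p 0.208) or Tnfrsf1a (adjusted p 0.502).

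**Figure D4:**
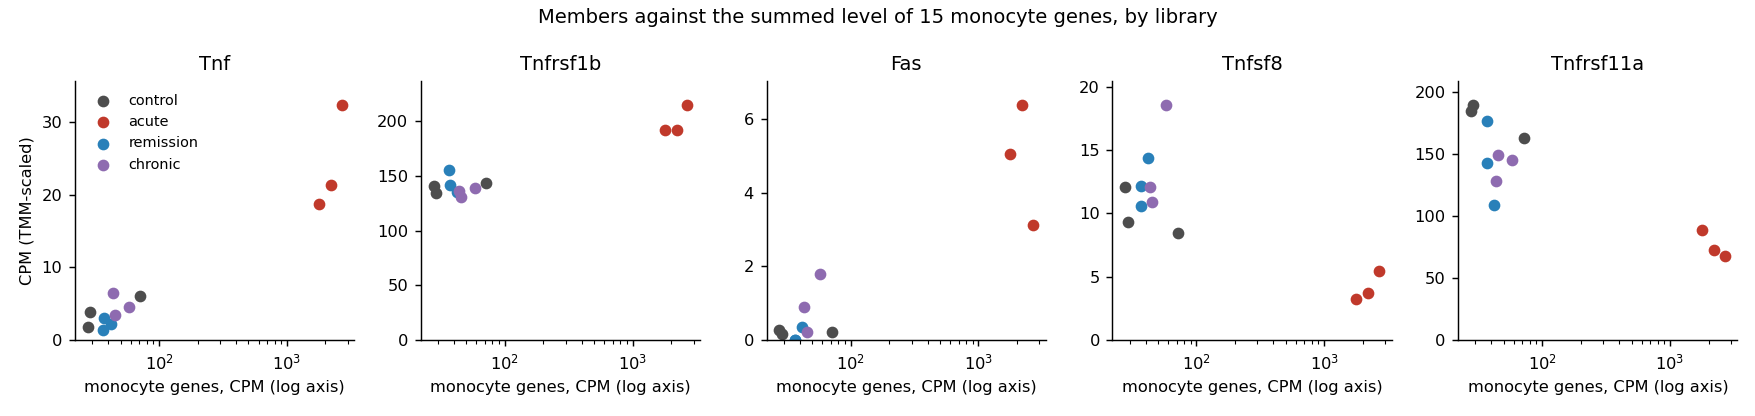
CPM in each library (linear axis from 0) against the summed CPM of 15 monocyte genes in the same library (log axis), colored by group. Drawn are Tnf, Tnfrsf1b, Fas, Tnfsf8 and Tnfrsf11a, whose acute libraries lay above or below all others. The other members, Tnfsf13b among them, are not drawn. The 3 acute libraries stand apart on the horizontal axis, at 1780 to 2680 CPM, and the 9 others lie at 27.7 to 71.4 CPM.

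The genes whose log2 levels over the 12 libraries lay closest to each member, by Pearson's r among 8355 protein-coding genes, are given descriptively. Many genes share the split between acute and other libraries. Not all members do, since Tnfsf13b and its closest gene stood highest in control mice. For Tnfrsf1b the closest genes were the interleukin-1 decoy receptor Il1r2 (0.974), the cytokine Il1b (0.97) and the monocyte gene Ly6c2 (0.968). For Tnfrsf11a they were the microglial membrane protein Tmem119 (0.96), Strada (0.957) and Bmp2k (0.955). For Tnf they were Hnrnpa0 (0.973), Rab5c (0.953) and Glipr2 (0.953), and for Fas they included Tpm4 (0.974) and Wdr1 (0.967). Tnfsf13b lay closest to Alox5, the 5-lipoxygenase gene (0.934), which stood at 50.7 ± 1.43 CPM in control, 15.7 ± 4.95 at the acute phase, 17.3 ± 3.63 in remission and 22.9 ± 5.04 at the chronic phase. Tnfsf8 lay closest to Zfp773 (0.947), and the best r of Tnfrsf1a (Tlnrd1, 0.884), Tnfsf12 (Dop1b, 0.865) and Tnfsf10 (Usp6nl, 0.819) were lower. Between members, r was 0.872 for Tnf and Fas, 0.83 for Tnf and Tnfrsf1b, and -0.855 for Tnfrsf1b and Tnfrsf11a.

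**Figure D5:**
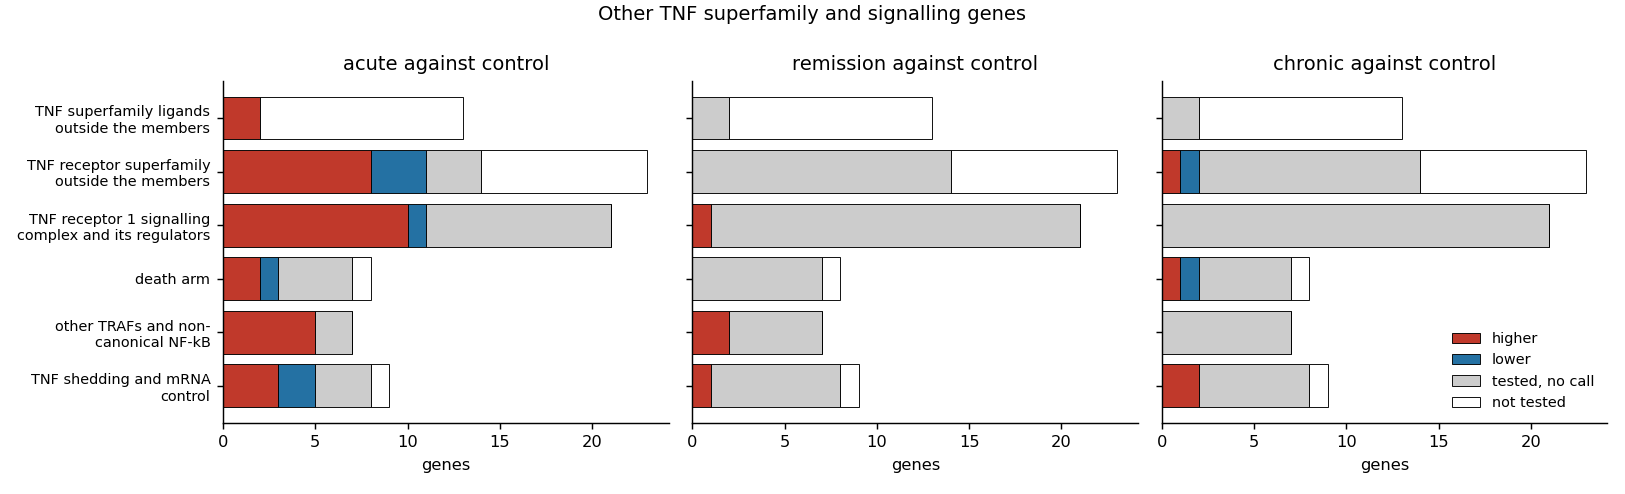
Number of genes in 6 lists of other TNF superfamily and signalling genes (horizontal axis) called higher, called lower, tested without a call or not tested, against control. Of 59 tested genes 37 were called at the acute phase, 4 in remission and 6 at the chronic phase, beside 43.7%, 9.31% and 14.7% of all genes.

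The rest of the superfamily and the signalling chain below the receptors were described by 6 lists of 81 genes, of which 59 were tested. In acute against control mice 37 passed (62.7%), beside 43.7% of all genes. Tnfsf14, Tnfrsf4, Tnfrsf9 and Mlkl passed the filter only with their acute libraries, so their rise there is part of how they came to be tested. The 37 and the medians of their lists include these genes. Of 13 other ligands listed 2 could be tested: the lymphotoxin subunit Ltb rose from 2.99 to 11.1 CPM, and Tnfsf14, the ligand LIGHT, stood at 0.0474 CPM in control and 7.13 CPM at the acute phase. Cd40lg had 0 counts in control libraries and was at least 14.8-fold higher in acute libraries. Of 14 other receptors tested, 8 rose and 3 fell (median log2 fold change 0.95), or 6 and 3 of 12 without Tnfrsf4 and Tnfrsf9. With library totals alone 4 rose and 3 fell, with Ltbr, Tnfrsf4, Tnfrsf14 and Tnfrsf23 not passing. In that scaling 56% of all genes were called in acute against control mice, 43.3% as lower. Cd40, a co-stimulatory receptor, rose from 0.463 to 20.6 CPM (adjusted p 1.07e-08) and Tnfrsf9, the receptor 4-1BB, from 0 counts, at least 42.2-fold. Tnfrsf26 rose from 0.875 to 10.1 CPM and Relt from 8.54 to 29.5 CPM. The acute libraries in which these genes stood higher also held the monocyte, neutrophil and T cell levels given above.

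Of 21 genes of the TNF receptor 1 complex and its regulators, 10 rose and 1 fell (median 0.45). Over all genes 23.7% were called higher and 20% lower in this comparison (median 0.02). Tnfaip3, which encodes the NF-kB brake A20, rose from 46.4 to 147 CPM, the ubiquitin ligase gene Birc3 from 24.1 to 62.7 CPM, and Tnip1, a partner of A20, from 13.3 to 31.6 CPM. The adaptor gene Traf5 fell from 20.5 to 10.6 CPM. With library totals alone 3 rose and 5 fell in this list, and its median was -0.11. Over all genes that scaling called 56%, 43.3% as lower, with a median of -0.53. Of 7 tested genes of the death arm 2 rose and 1 fell (median 0.36), beside 43.7% of all genes called in either direction. Without Mlkl 1 rose and 1 fell of 6. The necroptosis effector Mlkl, which passed the filter only through its acute libraries, rose from 0.236 to 6.56 CPM. The initiator caspase Casp8 fell from 74.1 to 41 CPM. With library totals alone the death arm gave 2 higher and 3 lower and a median of -0.21.

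Of 7 genes of other TRAFs and the non-canonical NF-kB arm, 5 rose and 0 fell (median 0.83), beside 23.7% and 20% of all genes. Among those that rose were Relb from 9.47 to 32.1 CPM, Nfkb2 from 23.1 to 45.8 CPM and Traf1 from 7.72 to 18.4 CPM. With library totals alone 3 rose and 1 fell, beside 56% of all genes called, 43.3% as lower. Of 8 tested genes of TNF shedding and mRNA control, 3 rose and 2 fell (median -0.09), beside the same 23.7% and 20% of all genes. Rhbdf2, which encodes the iRhom2 partner of the TNF-cutting protease, rose from 20.7 to 88.1 CPM (adjusted p 4.26e-09) while its paralog Rhbdf1 fell from 12.7 to 3.72 CPM. Litaf, named for its link to TNF induction, rose from 21.4 to 66.5 CPM (adjusted p 1.37e-08). Adam17, the protease itself, did not pass (adjusted p 0.122), but was lower with library totals alone (-0.79, adjusted p 0.000143). In that setting 2 genes of the list rose and 4 fell, beside 56% of all genes called, 43.3% as lower.

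Against control, 4 of the 59 tested pathway genes (6.78%) passed in remission and 6 (10.2%) in chronic mice, below the 9.31% and 14.7% of all genes called. In remission these were Litaf (32 CPM, adjusted p 0.0118), Nfkb2 (33.7 CPM, adjusted p 0.0239), Relb (17.7 CPM, adjusted p 0.0272) and Tnip1 (adjusted p 0.049), all higher than in control. None of the 4 passed with library totals alone. The Tnip1 call also ended by DESeq2 (adjusted p 0.0712), with the title number as a block (adjusted p 0.0581), with no low-count filter (adjusted p 0.0545) and on leaving out any of 9 libraries. Without control replicate 1 or control replicate 2, 1 pathway gene passed. Without remission replicate 3, Tnip1, Nfkb2 and Relb did not pass, and 2 genes did, 1 higher and 1 lower. In chronic mice Rhbdf2 (41.5 CPM, adjusted p 0.000242), Litaf (38.7 CPM, adjusted p 0.000264), Mlkl (2.23 CPM, adjusted p 0.00456) and Cd40 were higher, and Casp8 (45.5 CPM, adjusted p 0.000947) and Tnfrsf13b were lower. Tnf itself, whose shedding Rhbdf2 assists, stood at 4.83 ± 1.55 CPM in chronic and 3.92 ± 2.1 CPM in control mice (SD, n = 3), which did not pass (adjusted p 0.621).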

How the data were processed

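RNA from sorted microglia was sequenced in 12 libraries, 3 per group, by single reads from a transposase-based kit that does not mark strand, per the labels' protocols. Per the submitters' processing notes, HISAT2, SAMtools 1.3.1, Picard 2.6.4 and HTSeq 0.6.1 were used with GRCm38; the annotation release and counting settings are not given in the sources used here. The authors deposited raw counts of reads per gene. Symbols and coordinates came from GENCODE M21, which held 48144 of the 48526 gene IDs.

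Genes were filtered with filterByExpr, scaled with TMM factors and fitted over all 12 libraries with the robust quasi-likelihood test of edgeR 4.0.16 in R 4.3.3. The 6 comparisons between groups were adjusted by Benjamini-Hochberg over the 12545 genes tested, and a gene was called at an adjusted p under 0.05. For groups with 0 counts a floor of 3 counts was used, and exact 95% intervals are given for ratios of low counts. Both cover counting error only, since the reads carried no molecular identifiers. In simulated acute and control libraries, with 12167 genes tested, 18% of genes changed 1.5-fold were recovered, 50% at 2-fold and 96% at 4-fold. That simulation called 137 genes, against 5487 in the acute against control data, and changed no gene with few control counts, such as Fas. Its recovery therefore does not give the power of the tests here.

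The members and lists were chosen with earlier results of these data known. All members are named. Other named genes are up to 4 per list with the smallest p, direct partners of members, and the 3 protein-coding genes with the highest r to each member. Adam17, Cd40lg, Traf5, Ltbr, Tnfrsf4, Tnfrsf14 and Tnfrsf23 were named outside that rule, after their values were seen. A few genes that the rule would name are not reported here. Promoters are from RefSeq (GRCm38.p6). Alternatives were other scalings and filters, DESeq2 1.42.0, limma-voom (limma 3.58.1), fits to only the groups compared, the title number as a block, and leaving out each library.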

Additional observations from a re-analysis of the deposited data

How the results depend on the processing

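The changes of the members were recomputed under 21 alternatives. Tnfrsf17 was fitted only with no low-count filter and by DESeq2, and Fas under 20 in the comparisons without the acute group. At the acute phase the calls of Tnf, Tnfsf8, Tnfsf13b, Fas and Tnfrsf11a held in 21 of 21, with log2 fold changes of 2.14 to 3.08, -1.83 to -1.11, -1.17 to -0.54, 3.71 to 4.5 and -1.79 to -1.15. That of Tnfrsf1b held in 20 and turned to -0.04 with library totals alone (adjusted p 0.839), a scaling that moved the median of all genes in this comparison from 0.02 to -0.53 and the share of higher calls from 54.3 to 22.8%. With library totals alone, 2 members were called in remission and 3 in chronic against control mice, and 14 pathway genes in chronic against control. All genes moved likewise, with 12.4% called in remission and 25.8% in chronic against control mice, 8.33% and 20.2% lower. Leaving out 1 library gave 0 to 2 members and 1 to 5 pathway genes in remission against control mice, beside 5.8 to 9.89% of all genes. In chronic against remission mice it gave 0 to 1 pathway genes, beside 0.128 to 2.17% of all genes. The 1 was called without chronic replicate 2, where 2.06% of all genes were called. With no low-count filter 1 pathway gene was also called in chronic against remission mice, beside 2.9% of all genes. The causes of these shifts were not tested.

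Whether the number at the end of the library titles marks a block could not be decided. Over genes, deviations from the group means had a median r of 0.00664 between libraries of different groups that share a number (-0.125 to 0.184). It was 0.00049 between those that do not. All chronic libraries carry the same number, so taking deviations from the group mean removes any effect of it there. With the title number as a replicate block, 1 member was called in chronic against control mice, beside 13.8% of all genes. Depth limits Fas, Tnfrsf17 and the low ligands most, since 10 counts, about 2.19 CPM, mark the filter.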
